A study of Mus musculus with 20 samples.

Results

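The 10 genes described here regulate RAS-MAPK signalling and were followed in mouse pre-B cells after nuclear entry of the transcription factor IKZF1 (Ikaros) was switched on. They were picked by symbol and matched to mouse Ensembl gene identifiers, which found all 10 among the 56239 genes of the count table. The cells were the B3 line, a pre-B line that came from a lymphoma, which the labels describe as transduced with Ikaros-ERt2 and which were sorted on the GFP of the retroviral vector. In this fusion, IKZF1 is held out of the nucleus until 4-hydroxytamoxifen (4-OHT) binds the ERt2 domain. All 20 libraries carried the fusion and came from 1 line. The 2 libraries at 0 h had no 4-OHT, and the others had 500 nM 4-OHT for 30 min or 1, 2, 6, 12, 15, 18, 21 or 24 h, making 10 time points of 2 replicates. No vehicle time course entered this comparison, so 4-OHT, time in culture and IKZF1 cannot be told apart. RNA was taken from chromatin and sequenced without poly(A) selection, so the counts, which include introns, follow transcription more closely than the level of mature mRNA.

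RAS passes signals from receptors such as the pre-B cell receptor and the interleukin-7 receptor to the kinases RAF, MEK and ERK, and ERK in turn switches on many of its own inhibitors. Dual-specificity phosphatases (DUSPs) remove phosphate from ERK, JNK and p38, Sprouty proteins restrain receptor signals upstream of RAS, and Spred proteins recruit the RAS inhibitor neurofibromin to the membrane. In pre-B cells, the strength of ERK signalling is tied to proliferation and to differentiation, and IKZF1 drives the passage from the first to the second. Rasgrp1 stands apart from the other genes, since it encodes an exchange factor that activates RAS and is no inhibitor.

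Library totals were 33296158 to 46868954 counts with a median of 40943260. The replicates of a time point correlated at 0.994 to 0.996 (Pearson, log2 CPM across genes), and in 20 of 20 libraries the nearest library was its own replicate. Replicates differed most at 12 h and 18 h, where a chi-square test of the counts gave 9.22 and 13.9 per degree of freedom, against 1.24 at 2 h. The share of counts from mitochondrial genes was 0.138% to 0.150% through 2 h and 0.268% to 1.02% from 6 h on, and its part in the later results was not tested. Pre-B markers were expressed, at a summed 8200 to 16485 CPM (counts scaled to the library's effective total), although Rag1 and Rag2 had 0 counts in every library. The sum hides changes within this list. By the thresholds given below, 2 of 8 tested pre-B markers were down at 24 h (lowest log2 -7.42) and 5 were up. Of all genes tested, 20.1% were down and 20% up. Summed T cell markers stayed at 0.380 to 1.44 CPM, myeloid markers at 0.194 to 1.62 CPM with Itgam at 0, and erythroid markers at 0.513 to 1.21 CPM. In bulk RNA, fewer cells transcribing a gene and less RNA per cell cannot be told apart.

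The genes did not move as one group. Dusp4, Dusp6 and Spry1 were called down within the first hour, Dusp5 was called up from 30 min and Dusp10 from 12 h. Dusp2, Spred2 and Rasgrp1 were first called down at 12 h or 15 h. A call needs a fold change over 2 and an adjusted p under 0.01, and changes short of this came earlier. At 1 h, Dusp2 (log2 -0.60), Spred1 (-0.92) and Spred2 (-0.71) were lower with an adjusted p under 0.01. Dusp10 was 1.98-fold up at 6 h. Rasgrp1 was 2.08-fold lower at 6 h, with an adjusted p of 0.0117 by edgeR. Of the 10 genes, 9 had enough counts to test, and 8 of these changed over the time course, against 51.9% of the 16601 genes tested. A gene was called where edgeR gave an adjusted p under 0.01 and the fold change was over 2. At 30 min, 2 were down (Dusp4 and Dusp6, beside 0.41% of all genes tested) and Dusp5 was up (0.0542%), so that 3 of 9 were called beside 0.464%. At 1 h, Dusp4 and Spry1 were down (4.84%) and Dusp5 up (2.33%), beside 7.16% in either direction. The same 3 genes were called at 2 h (6.91% down, 6.25% up, 13.2% in all) and at 6 h (9.13%, 10.9% and 20.1%). Calls at 12 h numbered 4 down (9.92%) and 2 up (13.2%), beside 23.1% in all. There were 5 down and 2 up at 15 h (13.1%, 15.3% and 28.4%), 18 h (17.6%, 19.1% and 36.6%) and 21 h (19.4%, 20.1% and 39.5%). With 4 down (20.1%) and 2 up (20%) at 24 h, 6 of 9 stood beside 40.1% of all genes. Between 2 h and 24 h, 4 were down (16.6%) and 1 up (16.2%), beside 32.8% in all. The median log2 fold change of the genes was -0.68 at 2 h and -0.89 at 24 h, beside 0.03 and -0.01 over all genes tested.

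**Figure D1:**
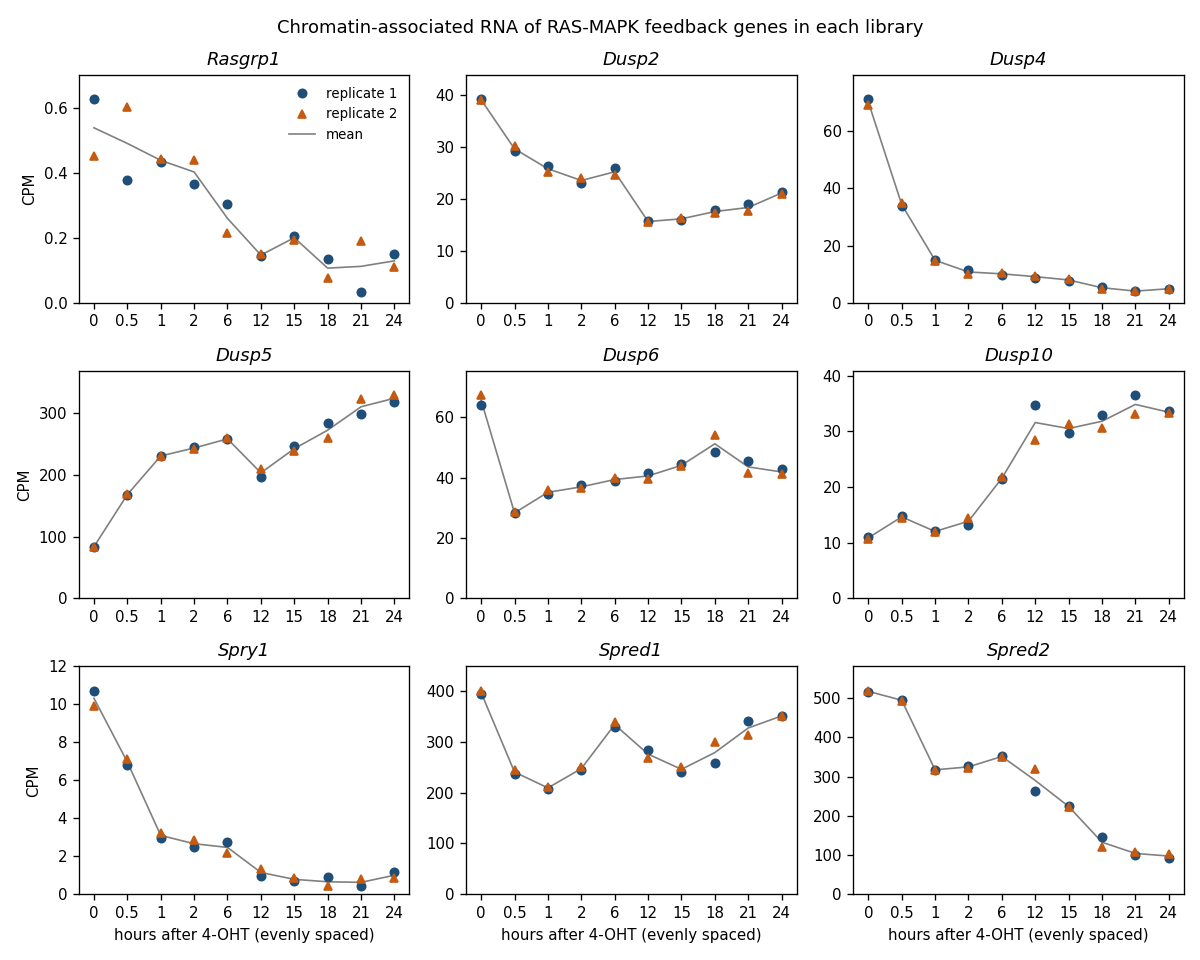
CPM (vertical axis, from 0) of the 9 measurable genes in each library against time after 4-OHT in hours (evenly spaced, so not to scale), with circles for replicate 1, triangles for replicate 2 and the grey line for their mean. Dusp4 falls from 71.2 and 69.3 CPM (0 h) to 4.92 and 4.86 CPM (24 h), while Dusp5 climbs from 83.6 and 83.5 to 318 and 329 CPM.

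Among these 5 phosphatases, Dusp4 showed the deepest loss. Dusp4, a nuclear phosphatase of ERK, JNK and p38 (chr8:34807297-34819894, +, GRCm38, ENSMUSG00000031530), read 71.2 and 69.3 CPM in the 0 h libraries, 33.7 and 35.0 (30 min), 15.1 and 14.6 (1 h), 11.6 and 9.95 (2 h), and 9.85 and 10.3 (6 h). It then read 8.80 and 9.45 (12 h), 7.62 and 8.30 (15 h), 5.53 and 4.96 (18 h), 3.93 and 4.18 (21 h), and 4.92 and 4.86 (24 h). No induced library came near the uninduced ones. After the first steep drop the level was nearly flat from 2 h to 6 h, went down further to 21 h and was slightly higher at 24 h. The log2 fold change against 0 h was -1.03 (SE 0.059, adjusted p = 6.10e-11) at 30 min, -2.71 (SE 0.067, adjusted p = 2.03e-18) at 2 h and -3.84 (SE 0.077, adjusted p = 5.69e-21) at 24 h. That is 14.4-fold lower at 24 h, and the later fall from 2 h to 24 h passed both thresholds as well (log2 -1.13, adjusted p = 2.35e-10). When tested against a 2-fold change, the calls at 30 min (adjusted p = 1) and at 24 h against 2 h (adjusted p = 0.0916) were lost. Dusp4 was at the midpoint of its largest change, interpolated on the log2 scale, after 55.3 min (0.461 h on linear CPM).

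Dusp5 went the other way. It encodes a nuclear phosphatase specific for ERK and is itself a gene that ERK signalling induces (chr19:53529109-53542431, +, GRCm38, ENSMUSG00000034765). It read 83.6 and 83.5 CPM (0 h), 167 and 168 (30 min), 230 and 230 (1 h), 244 and 242 (2 h), and 257 and 258 (6 h). Later values were 196 and 210 (12 h), 246 and 238 (15 h), 284 and 260 (18 h), 297 and 322 (21 h), and 318 and 329 (24 h). Every induced library was above both uninduced ones, with a dip at 12 h before the highest values at 24 h. Dusp5 rose 3.87-fold by 24 h (log2 1.95, SE 0.046, adjusted p = 8.87e-20). The change at 30 min lay on the 2-fold threshold (log2 1.01, SE 0.046, adjusted p = 1.70e-12) and was not called under 4 alternatives. Counts assigned to AC137853.2, an antisense gene that overlaps Dusp5, came to 0.0934% of the counts of Dusp5.

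The promoter of Dusp5 is shown first, since Dusp5 was the only one of the 5 called up before 12 h. It is the stretch from 250 bases before to 50 after the start in RefSeq (GRCm38.p6, chr19:53528895-53529194 (+)), 5′ to 3′, with GGAA or GGGA on either strand, the core of the IKZF1 motif, in capitals.
Dusp5: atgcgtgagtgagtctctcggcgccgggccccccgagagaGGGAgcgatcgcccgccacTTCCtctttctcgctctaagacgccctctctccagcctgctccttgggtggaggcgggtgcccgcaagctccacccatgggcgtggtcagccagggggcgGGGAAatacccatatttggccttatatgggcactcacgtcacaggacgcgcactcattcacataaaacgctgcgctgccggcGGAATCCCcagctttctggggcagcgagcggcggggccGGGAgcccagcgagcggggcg
Counting overlapping matches, it holds 7 of GGAA or GGGA, which equals the median of 7 over 32851 RefSeq promoters, of which 57.5% had at least as many. A stretch of the same promoter holds 2 CArG boxes, the sites named for serum response factor, at 82 and 72 bases before the start. This search was chosen after the sequence had been seen. The boxes are in capitals below (chr19:53529057-53529088, +).
Dusp5 CArG boxes: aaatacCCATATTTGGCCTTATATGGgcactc
At least 1 CArG box was found in 1.63% of promoters and at least 2 in 0.0183%, and among the 9 promoters of the genes described here only that of Dusp5 held any. Such matches describe letters and do not show that a factor binds there.

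Dusp6 dropped fast and partly came back. It encodes the cytoplasmic phosphatase of ERK (chr10:99263231-99267489, +, GRCm38, ENSMUSG00000019960). The 0 h libraries held 63.8 and 67.3 CPM, and those at 30 min held 28.2 and 28.5. From 1 h to 24 h the 16 libraries ranged from 34.4 to 54.0 CPM, all between the 30 min and the 0 h values. The fall passed both thresholds at 30 min only (log2 -1.21, SE 0.058, adjusted p = 2.93e-12), and the log2 fold change at 24 h was -0.65 (SE 0.056, adjusted p = 7.41e-10), below the 2-fold bar.
The Dusp6 window was chr10:99262981-99263280 (+), with the capitals as above:
Dusp6: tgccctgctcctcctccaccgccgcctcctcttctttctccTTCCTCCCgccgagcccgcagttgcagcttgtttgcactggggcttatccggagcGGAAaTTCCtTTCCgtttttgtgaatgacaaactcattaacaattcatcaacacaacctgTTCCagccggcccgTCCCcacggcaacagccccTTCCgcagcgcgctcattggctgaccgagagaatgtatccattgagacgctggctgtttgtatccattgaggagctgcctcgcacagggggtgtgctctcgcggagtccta
It holds 8 matches, and 45.5% of all promoters had at least as many.

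Dusp2, a nuclear phosphatase of ERK and p38 that is best known from activated lymphocytes (chr2:127336159-127338376, +, GRCm38, ENSMUSG00000027368), went down in steps. The 2 libraries of each time point read 39.1 and 38.9 CPM (0 h), 29.1 and 30.1 (30 min), 26.4 and 25.2 (1 h), 23.1 and 23.9 (2 h), and 25.9 and 24.5 (6 h). From there they read 15.8 and 15.5 (12 h), 16.0 and 16.3 (15 h), 17.8 and 17.3 (18 h), 19.0 and 17.7 (21 h), and 21.3 and 20.9 (24 h). It was lowest at 12 h and higher again at 24 h. The fall was called from 12 h (log2 -1.32, SE 0.055, adjusted p = 5.43e-15), through 21 h, but not at 24 h (log2 -0.89, SE 0.053). With library totals in place of TMM factors, the 24 h value was -1.15 and passed.

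Dusp10 was the late riser. Its product acts mainly on JNK and p38 and less on ERK (chr1:184013302-184075636, +, GRCm38, ENSMUSG00000039384). It read 11.1 and 10.7 CPM (0 h), 14.8 and 14.5 (30 min), 12.1 and 12.0 (1 h), 13.2 and 14.5 (2 h), and 21.4 and 21.8 (6 h). After that it read 34.8 and 28.4 (12 h), 29.6 and 31.4 (15 h), 33 and 30.6 (18 h), 36.5 and 33.1 (21 h), and 33.6 and 33.2 (24 h). The libraries from 12 h on stood above all earlier ones. The 6 h value fell just short of 2-fold (log2 0.99, SE 0.083), and Dusp10 was called up from 12 h (log2 1.53, SE 0.082, adjusted p = 4.07e-13) to 24 h (log2 1.62, SE 0.082, adjusted p = 6.31e-14). It was also the only one of the genes up at 24 h against 2 h (log2 1.27, SE 0.081), a call lost with library totals only (log2 1.00).
Its RefSeq promoter, shown as a late riser beside the early one of Dusp5, starts inside the GENCODE span of the gene (chr1:184034131-184034430 (+)):
Dusp10: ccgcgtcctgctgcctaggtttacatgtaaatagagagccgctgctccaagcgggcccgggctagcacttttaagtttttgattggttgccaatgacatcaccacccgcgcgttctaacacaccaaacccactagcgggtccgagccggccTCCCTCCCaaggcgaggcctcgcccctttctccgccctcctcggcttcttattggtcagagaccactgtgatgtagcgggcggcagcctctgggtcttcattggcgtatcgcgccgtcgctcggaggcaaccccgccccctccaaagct
It holds 2 matches to the capitalised letters, and 98.1% of promoters had at least as many.

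**Figure D2:**
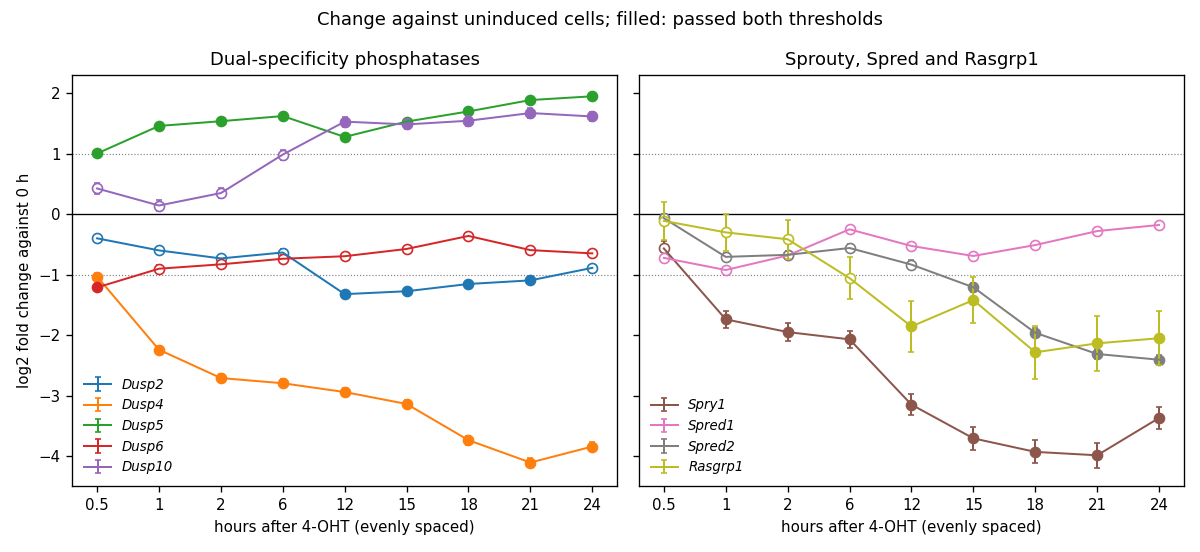
Log2 fold change against 0 h (vertical axis, error bars ± SE from edgeR) at each time after 4-OHT in hours (evenly spaced) for the DUSP genes on the left and for Spry1, Spred1, Spred2 and Rasgrp1 on the right, with dotted lines at a 2-fold change and filled points for values that passed both thresholds. Dusp4 reaches -4.11 at 21 h and Dusp5 1.95 at 24 h, while Spred1 has no filled point.

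Of the Sprouty genes, Spry1 was present and Spry2 was not detected. Spry1 restrains signals from receptor tyrosine kinases to RAS (chr3:37639947-37644598, +, GRCm38, ENSMUSG00000037211). It read 10.7 and 9.93 CPM (0 h), 6.80 and 7.13 (30 min), 2.98 and 3.22 (1 h), 2.48 and 2.85 (2 h), and 2.75 and 2.18 (6 h). The later libraries held 0.949 and 1.35 (12 h), 0.721 and 0.849 (15 h), 0.903 and 0.413 (18 h), 0.441 and 0.814 (21 h), and 1.16 and 0.841 (24 h). There was a first drop within an hour, a plateau to 6 h and a further drop by 12 h, and no library from 12 h on overlapped the earlier ones. Spry1 fell by 1.74 on the log2 scale at 1 h (SE 0.14, adjusted p = 7.57e-10) and the log2 fold change was -3.99 at 21 h (SE 0.20) and -3.37 at 24 h (SE 0.18, adjusted p = 1.97e-13). Counts of Gm42922, on the opposite strand, came to 1.42% of those of Spry1.

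The Spry1 promoter is shown as that of the gene that fell in 2 steps (chr3:37639697-37639996 (+), with the capitals as above):
Spry1: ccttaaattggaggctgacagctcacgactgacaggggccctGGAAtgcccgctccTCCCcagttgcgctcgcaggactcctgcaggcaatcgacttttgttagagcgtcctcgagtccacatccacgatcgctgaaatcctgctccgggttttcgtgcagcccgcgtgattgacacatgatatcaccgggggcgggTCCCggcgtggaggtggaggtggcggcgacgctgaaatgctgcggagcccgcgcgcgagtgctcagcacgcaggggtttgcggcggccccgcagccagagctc
It holds 3 matches, and 94.3% of promoters had at least as many. Spry2, its paralog (chr14:105891947-105896819, -, GRCm38, ENSMUSG00000022114), had 0 counts in 20 of 20 libraries. At 3 counts, the limit a count of 0 allows was 0.0621 to 0.102 CPM by library, which covers counting error only, so no change of Spry2 could be measured. Its promoter held 10 matches, and 25.5% of promoters had at least as many.

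The Spred genes parted ways. Spred1 (chr2:117121374-117182279, +, GRCm38, ENSMUSG00000027351) read 393 and 400 CPM (0 h), 236 and 245 (30 min), 208 and 210 (1 h), 244 and 250 (2 h), 328 and 339 (6 h), and 350 and 351 (24 h). Between 12 h and 21 h its 8 libraries ranged from 241 to 341 CPM, with a second low at 15 h (241 and 250 CPM, log2 -0.69). The lowest values came at 1 h and the 24 h libraries were near those at 0 h without overlapping them. It never passed a 2-fold change. The log2 fold change was -0.92 (SE 0.053, adjusted p = 5.07e-12) at 1 h, -0.18 (SE 0.053) at 24 h, and 0.51 (SE 0.053, adjusted p = 2.19e-08) at 24 h against 2 h.

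Spred2 (chr11:19924375-20024026, +, GRCm38, ENSMUSG00000045671) read 516 and 519 CPM (0 h), 496 and 494 (30 min), 317 and 318 (1 h), 327 and 323 (2 h), and 354 and 349 (6 h). It went on to 262 and 318 (12 h), 225 and 223 (15 h), 146 and 120 (18 h), 101 and 107 (21 h), and 93.2 and 102 (24 h). An early step was followed by a plateau and a long later decline. Spred2 was first called down at 15 h (log2 -1.21, SE 0.071, adjusted p = 1.60e-12) and fell by 2.41 on the log2 scale by 24 h (SE 0.076, adjusted p = 1.34e-17). Between 2 h and 24 h alone it fell by 1.74 on the log2 scale (SE 0.075). Its midpoint was 15.0 h (10.3 h on linear CPM), the latest of the genes on both scales.
The Spred2 promoter, the richest of the 9 in these letters, has 12 matches, and 11.9% of promoters had at least as many (chr11:19924192-19924491 (+)):
Spred2: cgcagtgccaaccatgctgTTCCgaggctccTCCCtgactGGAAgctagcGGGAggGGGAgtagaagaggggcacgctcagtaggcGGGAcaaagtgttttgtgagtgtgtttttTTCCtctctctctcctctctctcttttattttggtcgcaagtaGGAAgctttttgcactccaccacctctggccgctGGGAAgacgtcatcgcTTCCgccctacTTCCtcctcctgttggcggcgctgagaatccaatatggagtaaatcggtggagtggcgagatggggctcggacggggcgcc
Across the 9 promoters the number of matches ran from 2 in Dusp10 to 12 in Spred2, and 99.6% of all promoters held at least 1. Dusp5 and Dusp10, which rose, had 7 and 2 matches, and the genes that fell and have an entry had 3 to 12. Of other letters searched on both strands, GGGAA, which contains a counted core, was in 5 of the 9 (62.7% of promoters), CCGGAA was in that of Spry2 alone (14.9%), and TGACGTCA was in none (1.79%).

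Rasgrp1, the exchange factor (chr2:117279993-117343001, -, GRCm38, ENSMUSG00000027347), was scarcely transcribed. Its counts were 29 and 20 (0 h), 14 and 27 (30 min), 21 and 18 (1 h), 14 and 19 (2 h), 13 and 10 (6 h), 5 and 6 (12 h), 8 and 8 (15 h), 6 and 3 (18 h), 1 and 7 (21 h), and 5 and 4 (24 h). Libraries from 12 h on were all below those of the first 2 h. Rasgrp1 was called down from 12 h, with a log2 fold change of -2.28 at 18 h (SE 0.44, adjusted p = 7.22e-05) and -2.05 at 24 h (SE 0.44, adjusted p = 0.000263). From the summed counts, 9 at 24 h against 49 at 0 h, the level was 4.22-fold lower, with an exact 95% interval of 2.05 to 9.78 for counting error. The calls at 12 h and at 15 h were lost without 0 h replicate 1 (log2 -1.60 and -1.16), and that at 15 h also without either 15 h replicate. Spred1 lies 97.7 kb away with 4 genes between, and its values did not follow those of Rasgrp1 (Pearson's r = -0.24 over 10 time-point means).

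Compared per kilobase of gene span, since counts include introns, the genes fell into a wide order. At 0 h, Dusp2 stood at 17.6 ± 0.068 CPM per kb (SD, n = 2) and Dusp6 at 15.4 ± 0.58. Spred1 (6.51 ± 0.084), Dusp5 (6.27 ± 0.0060), Dusp4 (5.58 ± 0.11) and Spred2 (5.19 ± 0.021) were close together, Spry1 stood at 2.22 ± 0.12, and Dusp10 (0.175 ± 0.0054) and Rasgrp1 (0.00855 ± 0.0020) were last of those detected. No neighbours in this order overlapped within their SD. By 24 h Dusp5 led at 24.3 ± 0.56 CPM per kb, and Dusp6 (9.83 ± 0.27) and Dusp2 (9.52 ± 0.12) overlapped within their SD. Dusp4 (0.388 ± 0.0035) had dropped below Dusp10 (0.537 ± 0.0045).

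**Figure D3:**
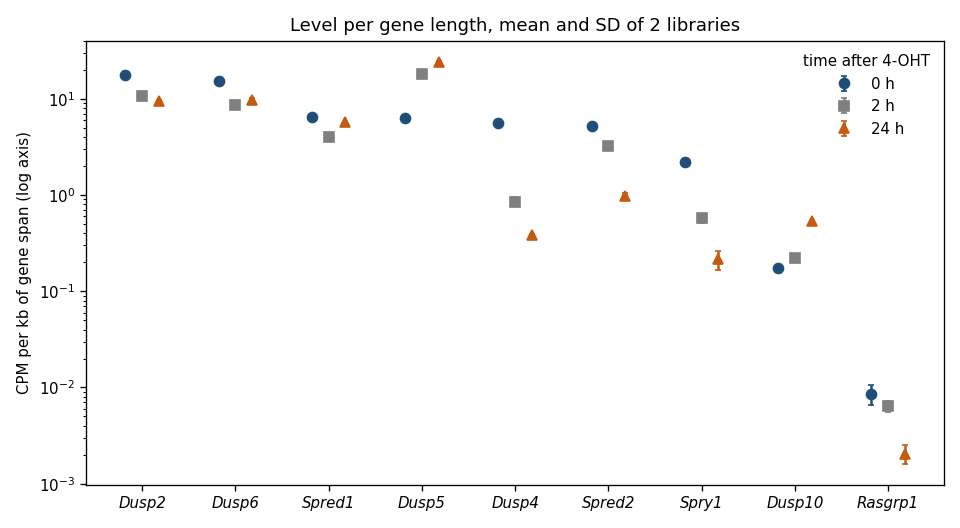
Level in CPM per kb of gene span (vertical log axis) of the 9 measurable genes at 0 h, 2 h and 24 h, as the mean of 2 libraries with error bars of 1 SD, in the order of the 0 h levels. Dusp5 passes from 6.27 at 0 h to 24.3 at 24 h and Dusp4 from 5.58 to 0.388.

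Over the 10 time-point means of log2 CPM, taken as a description since all points share the same libraries, Dusp4 and Spry1 were alike (Pearson's r = 0.95), as were Rasgrp1 and Spry1 (0.93) and Dusp2 and Spry1 (0.93). Dusp6 and Spred1, the genes that were lowest within the first hour and then higher, were less so (0.67). Dusp4 and Dusp5 ran opposite (-0.93), and so did Rasgrp1 and Dusp10 (-0.96). Among 12048 other genes with at least 1 CPM on average, Ccnd2 was 1 of the 2 most like Dusp4 (r = 0.995, after Slx1b at 0.997), Chaf1b was the most like Spred2 (0.997), Map4k5 the most like Dusp10 (0.991), Tubb2a the most like Dusp5 (0.975), Zc3hav1l the most like Spry1 (0.990), Tmco4 the most like Rasgrp1 (0.995) and Mmp11 the most like Dusp2 (0.963). Of these 8 genes, Dusp6 had the weakest best match, Gm13166 (0.895). Spred1, which was not called, was not searched.

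The genes also differed in when they changed. The midpoint of the largest change, on the log2 scale, came at 15.0 min for Dusp6 and 19.2 min for Spred1, both interpolated within the first 30 min, at 29.1 min for Dusp5, at 55.3 min for Dusp4 and at 87.7 min for Dusp2. It came at 4.04 h for Spry1, 5.07 h for Dusp10, 6.87 h for Rasgrp1 and 15.0 h for Spred2. These times and their order hold for the means of the 2 replicates on the log2 scale. The 15.0 min of Dusp6 is set by the sampling and is not a measured time, since its largest change was at 30 min, the first time sampled. On linear CPM the midpoint was 0.461 h for Dusp4, ahead of Dusp5 (0.786 h) and Dusp2 (0.797 h), and 0.693 h for Spry1, 4.24 h for Rasgrp1, 6.76 h for Dusp10 and 10.3 h for Spred2. In the single replicates on the log2 scale, it was 7.16 h and 6.45 h for Spry1 and 9.94 h and 7.05 h for Rasgrp1. For Dusp10 it was 5.50 h and 4.57 h, so Spry1 came after Dusp10 in each replicate, unlike in the means.

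Other genes of the pathway were read beside these, from lists of 74 genes of which 67 could be tested. These lists were chosen with earlier results of these data known, so their counts are a description only. At 2 h, 14 were down and 3 up (6.91% and 6.25% of all genes tested), and 24 h had 19 down and 9 up (20.1% and 20%). Of the other Sprouty and Spred genes, Spry4, an inhibitor of the same kind, fell from 51.9 ± 0.40 CPM (SD, n = 2) at 0 h to 0.382 ± 0.035 at 24 h (log2 -7.07, SE 0.13, adjusted p = 1.71e-21). Of 4 tested MAPK phosphatases, 2 were down and 1 up at 24 h. Dusp7, which acts on ERK, fell by 3.43 on the log2 scale (SE 0.23, adjusted p = 7.74e-12), and Dusp1, which acts on p38 and JNK, rose by 1.88 (SE 0.16, adjusted p = 3.62e-10). Dusp8 was the other one down, on 72 counts at 0 h, 4 at 2 h and 0 at 24 h, and was named after its counts were seen.

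Most of the listed transcripts that ERK induces were lower. The list was chosen with earlier results of these data known, so its counts are a description only. It leaves out the genes described above, among them Dusp5, which rose. Of 13 tested, 6 were down and 0 up at 2 h by edgeR (12 had an unadjusted p under 0.05), and 9 were down and 1, Junb, up at 24 h. Over all genes tested, 6.91% were down and 6.25% up at 2 h, and 20.1% and 20% at 24 h. Etv4, Etv5 and Phlda1 were named by size. Etv5, an ETS factor downstream of ERK, fell from 190 ± 1.2 CPM to 28.8 ± 2.2 at 24 h (SD, n = 2, log2 -2.72, adjusted p = 4.17e-21). Etv4 fell by 4.07 and Phlda1 fell by 3.61 on the log2 scale. Of the core kinases and scaffolds from RAF to ERK, 0 of 10 were called by edgeR at 2 h, where 6 had an unadjusted p under 0.05, and 1 at 24 h (Ksr2, up, named after its value was seen, as was Junb). Of 5 tested RAS GTPases, 0 were called by edgeR at either time, and 4 at 2 h and 5 at 24 h had an unadjusted p under 0.05. Calls in either direction made up 13.2% of all genes tested at 2 h and 40.1% at 24 h. With lists this small, the counts for kinases and GTPases are a description only.

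Regulators of RAS and of its lipid cue, and the JNK and p38 kinases, included genes called in either direction. At 24 h the shares by list were 3 of 6, 3 of 10 and 4 of 8 for the regulators and 3 of 9 for these kinases. They lay near the 40.1% of all genes, so the counts are given as a description only. Of 6 tested exchange factors other than Rasgrp1, 2 were down and 1 up at both 2 h and 24 h. Rasgrp3, a relative of Rasgrp1, fell by 2.69 on the log2 scale at 2 h (SE 0.086, adjusted p = 1.40e-16), from 31.0 ± 0.87 to 4.79 ± 0.026 CPM, and stood at 15.4 ± 0.82 at 24 h. Rasgrf2 rose by 1.82 at 24 h. Of 10 GTPase-activating genes, which switch RAS off, 2 were down and 1 up at 24 h, and Rasal1 fell by 3.33 while Rasa2 rose by 2.67 on the log2 scale (adjusted p = 3.34e-18 and 2.73e-21). Of these, Rasa4 fell at 2 h (log2 -1.67). Of 8 genes for the supply and use of diacylglycerol, 1 was down and 3 up at 24 h. Dgka, a kinase that removes diacylglycerol, rose 13.3-fold from 16.8 ± 0.54 CPM, Dgkd, a kinase of the same family, rose 3.05-fold, and Plcg2, which produces diacylglycerol, fell by 1.80 on the log2 scale. Plcg1, which also produces it, was the third gene up (35.2 to 88.0 CPM, log2 1.32), and was named after its value was seen. Of 9 JNK and p38 kinases, 2 were down (Map2k3, log2 -2.33, and Mapk14, log2 -1.27) and 1 up at 24 h.

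**Figure D4:**
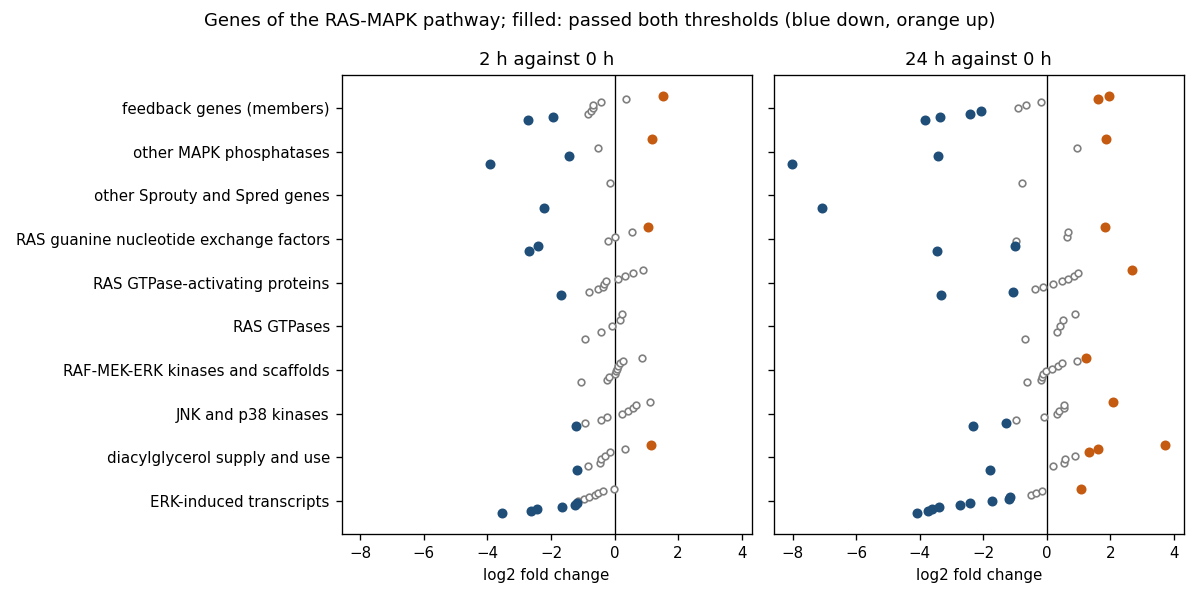
Log2 fold change (horizontal axis) of each tested gene of the pathway lists at 2 h (left) and 24 h (right) against 0 h, one row a list, with filled points for genes that passed both thresholds, blue for down and orange for up. The 13 transcripts that ERK induces include 9 down and 1 up at 24 h, beside 20.1% and 20% of all genes tested. The 5 RAS GTPases hold no filled point.

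The 0 h description does not say whether the replicates came from separate cultures, so p-values may measure technical spread only. All time points share an estimate of the spread for each gene. The SE and p-values at 12 h and 18 h, where replicates differed most, may therefore be too small. Reads counted without a stated strand setting cannot separate a gene from an antisense partner. Counts assigned to such partners came to at most 1.42% of those of the genes here. Since the handling of shared reads is not given, this does not limit the antisense reads counted within a gene.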

How the data were processed

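Chromatin-associated RNA was sequenced from B3 cells with inducible IKZF1 at 10 time points, 2 replicates each, after rRNA depletion and directional library preparation. Per the labels and the study's methods, the authors aligned reads to GRCm38 (mm10) with STAR within nf-core/rnaseq, and counted reads per gene, introns included, with featureCounts. CASAVA 2.17 is listed in the submitters' processing notes. The annotation release, strand setting and handling of shared reads are not given in the sources used here. The deposited table holds raw counts of 56239 genes, of which 55154 have a symbol in the gene table.

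From these counts, 16601 genes reached 10 counts in 2 or more libraries and were tested. In R 4.3.3, edgeR 4.0.16 was fitted to all 20 libraries with TMM factors, time point as a factor and no replicate block. The quasi-likelihood test was adjusted over all genes tested by Benjamini-Hochberg, with calls at an adjusted p under 0.01 and a fold change over 2. CPM are scaled by the library total times its TMM factor. Log2 CPM for profiles used a pseudocount of 0.05. The members and gene lists were chosen with earlier results of these data known. Named were the 10 members, up to 3 genes per other list with the largest change at 2 h or 24 h among those called and averaging at least 1 CPM, and the genes most like each member. Gene positions are from GENCODE M21 and promoters from RefSeq, which gave 9 of 10 members (not Dusp4). The scripts were tested on simulated data. Alternatives were DESeq2 1.42.0, DESeq2 size factors, library totals, filters, thresholds, a replicate block, fewer libraries, and leaving out each replicate.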

Additional observations from a re-analysis of the deposited data

How the results depend on the processing

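Over 90 values, the members' log2 fold changes in 10 comparisons, direction and call were kept in 90 with DESeq2 size factors, 88 with DESeq2, 88 with no filter and 79 when tested against a 2-fold change. The replicate numbers showed no steady pairing across time points (mean correlation of deviations 0.03 over 45 pairs of time points, range -0.68 to 0.48). Some pairs correlated clearly, in either direction. Spread shared between time points under other numbering was not tested, and a block on these numbers cannot test it. A replicate block kept 90 of 90 values, with 4 members down and 2 up at 24 h. At 30 min, the number of members up was 0 with no filter, with at least 10 counts in every library, when tested against a 2-fold change, and with only the 4 libraries compared, and the number down was 0 against a 2-fold change. That test left 3 down at 21 h and 1 down at 24 h against 2 h. With library totals only, which shift the median of all genes by -0.26 at 24 h and call 4260 down and 2603 up in place of 3329 and 3323, 0 members were up at 24 h against 2 h (Dusp10 log2 1.00) and Dusp6 turned from 0.18 to -0.089 there. Leaving out each replicate in turn gave 1 to 2 members up at 6 h. Rasgrp1 at 30 min (log2 -0.11) ranged from -0.51 to 0.16 in this way, turning to 0.15 without 0 h replicate 1 and to 0.16 without 30 min replicate 1. DESeq2 did not call Rasgrp1 at 15 h (log2 -1.43) or at 24 h against 2 h (log2 -1.64), and the latter call was also lost without 2 h replicate 2 or either 24 h replicate (log2 -1.87 to -1.42). On linear CPM the midpoint moved by over 1.5 times for Spry1 (4.04 h to 0.693 h), Dusp4 (0.921 h to 0.461 h), Dusp2 (1.46 h to 0.797 h), Dusp5 (0.485 h to 0.786 h) and Rasgrp1 (6.87 h to 4.24 h). The causes were not tested, and with 2 replicates and at most 29 counts a library, Rasgrp1 is the least precise of the genes.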
